A study of Mus musculus with 18 samples.

Results

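The genes described here build, fold and cross-link the collagen and laminin part of the extracellular matrix, and they were followed in C3H10T1/2 cells, a line of mouse embryo fibroblasts that can be turned towards fat cells. Members were every gene on the array whose single annotated symbol named a collagen chain, a laminin chain, a lysyl oxidase, a lysyl or prolyl hydroxylase of the Plod and P4h families, Serpinh1, Hspg2, Fn1, fibrillin 1, Eln or Vcan. The rule found 51 of the 8252 genes with a single symbol, measured by 75 probe sets. Each gene is given by its brightest probe set over the 18 arrays, so 51 probe sets stand for the 51 genes. Of these, 34 passed the filter on dim probe sets and were tested. They were 7 of 7 cross-linking and folding enzymes, a role that here includes the chaperone Serpinh1, and 6 of 8 fibrillar collagens. The others were 5 of 9 network and basement membrane collagens, 8 of 14 other collagens, 5 of 10 laminins with perlecan, and 3 of 3 glycoproteins and elastic fibre genes. Fibrillin 1 was not among the genes measured.

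The study crossed 3 treatments, which gave 8 groups and 18 arrays. IDMB is an adipogenic mix of insulin (10 µg/mL), dexamethasone (1 µM), IBMX (0.5 µM as the labels give it) and BRL49653 (1 µM, also called rosiglitazone, an agonist of the fat cell receptor PPARG), given for 24 h. Cells with EGF, a growth factor, had 10 nM of it for 24 h, and those with TCDD, a dioxin that activates the aryl hydrocarbon receptor, had 10 nM for 72 h. UT, read as cells without any of these agents, and IDMB had 3 arrays each. EGF, TCDD, EGF+TCDD, IDMB + EGF, IDMB + TCDD and IDMB + EGF + TCDD had 2 arrays each. All groups were collected 72 h after serum was last added and 24 h after confluence, so all were confluent cells of 1 line. Each array read mRNA pooled from 6 cultures. The labels do not say that replicates came from separate sets of cultures, so p-values measure the spread between these arrays, which may be partly technical.

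Collagen chains are folded and hydroxylated in the endoplasmic reticulum and secreted as triple helices. Outside the cell they assemble into fibres (types I, III, V and XI) or sheets (type IV). Lysyl oxidases cross-link the fibres. Type IV collagen, laminins and the heparan sulphate proteoglycan perlecan make up basement membrane, the thin sheet that surrounds each fat cell. Fibroblasts that become fat cells are known to exchange a fibrillar, fibronectin-rich matrix for such a basement membrane, and versican, a large chondroitin sulphate proteoglycan, is known as a component of the loose matrix that forms early.

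The type IV chains Col4a1 and Col4a2 and versican (Vcan) were the members with the largest rises under IDMB. The sequence around the listed start of each is shown because the first 2 genes lie head to head and their windows overlap. The sequences are RefSeq promoter windows of GRCm38.p6, from 250 bases before to 50 after the listed start, 5′ to 3′ on the strand of the gene. In Col4a1 (chr8:11312777-11313076, minus strand) and Col4a2 (chr8:11312555-11312854, plus strand), capitals mark the 78 bases that lie in both windows (chr8:11312777-11312854), read in opposite directions. In Vcan (chr13:89742463-89742762, minus strand), capitals mark the 2 matches to the GC box and the 1 match to the CAAT box on either strand.
Col4a1: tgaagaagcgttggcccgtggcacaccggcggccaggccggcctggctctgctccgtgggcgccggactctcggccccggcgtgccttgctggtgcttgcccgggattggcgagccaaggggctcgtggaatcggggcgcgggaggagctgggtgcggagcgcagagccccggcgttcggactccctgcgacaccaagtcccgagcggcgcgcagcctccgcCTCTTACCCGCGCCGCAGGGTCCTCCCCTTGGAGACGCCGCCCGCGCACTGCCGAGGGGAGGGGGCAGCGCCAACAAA
Col4a2: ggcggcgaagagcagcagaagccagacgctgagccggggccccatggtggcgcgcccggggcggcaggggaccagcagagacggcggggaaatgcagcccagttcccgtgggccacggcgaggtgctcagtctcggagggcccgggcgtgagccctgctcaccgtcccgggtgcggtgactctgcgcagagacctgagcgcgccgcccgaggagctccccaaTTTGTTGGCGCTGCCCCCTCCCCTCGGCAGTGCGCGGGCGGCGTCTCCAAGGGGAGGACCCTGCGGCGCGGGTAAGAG
Vcan: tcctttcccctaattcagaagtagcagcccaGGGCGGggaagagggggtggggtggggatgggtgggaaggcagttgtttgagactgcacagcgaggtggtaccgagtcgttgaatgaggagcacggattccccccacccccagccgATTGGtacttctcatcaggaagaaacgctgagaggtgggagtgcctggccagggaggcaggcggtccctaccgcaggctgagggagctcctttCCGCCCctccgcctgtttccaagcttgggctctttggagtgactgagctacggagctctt
The listed starts of Col4a1 and Col4a2 are 21 bases apart, each inside the shared bases. No shared base lies upstream of both starts, so the capitals do not mark a common upstream sequence. Their shared bases were 73.1% G or C, the Vcan window 61% and all 32851 mouse windows together 53.8%. Of the 51 members, 34 had at least 1 window (38 windows in all) and 17 had none. Letters were searched on both strands, each motif by itself, so neighbouring matches may share a base. The core of the dioxin response element, GCGTG, was in the windows of 13 of the 34 members (38.2%) and in 32.4% of all windows. The GC box GGGCGG was in 21 (61.8%) against 35.7% of all windows, and CCAAT in 13 (38.2%) against 37.4%. The AP-1 letters TGANTCA were in 1 (2.94%) against 7.81%. Col4a1 and Col4a2 each held 1 GCGTG and 1 CCAAT, with 1 and 3 GC boxes respectively, and neither held TGANTCA. These are matches of letters in short windows, and a gene with several windows counts if any of them holds the letters.

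Values are the log2 of the deposited signal intensities, with values under 143.5 raised to it (7.165 on the log2 scale). The genes that give the set its name were bright on all 18 arrays: log2 intensity ran from 16.06 to 17.22 for Col1a1, from 14.21 to 16.28 for Col4a1 and from 13.50 to 15.81 for Lox. Of 8 fibroblast markers, 7 passed the filter and vimentin's probe set did not. The 17 members that did not pass were Col2a1, Col11a2, Col4a3, Col4a4, Col8a1, Col10a1, Col12a1, Col13a1, Col14a1, Col17a1, Col19a1, Col22a1, Lama1, Lama2, Lama3, Lama5 and Lamb3. Their mean log2 intensities over the arrays lay between 7.16 and 8.85, against a filter of 9.731 that the highest of the 8 group means had to reach. Just inside the filter were Col26a1 and Eln, with highest group means of 9.90 and 10.14, and just outside it were Lama5 (9.28) and Col2a1 (9.12). An intensity does not compare the amounts of different transcripts, since probe sets bind differently.

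**Figure D1:**
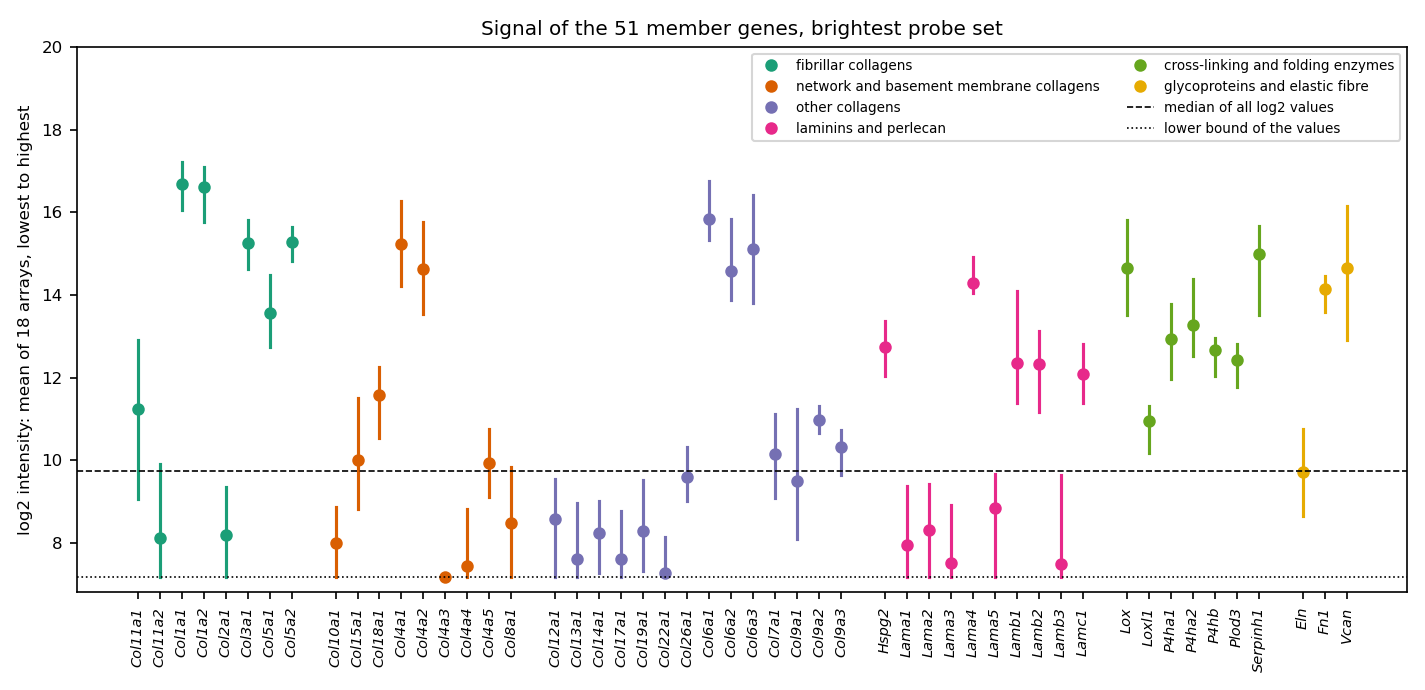
Log2 intensity (y axis) of the 51 member genes (x axis, by role and then by name): each point is the mean over 18 arrays and each line runs from the lowest to the highest array. The dashed line is the median of all log2 values (9.731) and the dotted line the lower bound (7.165). All 7 cross-linking and folding enzymes lie above the dashed line, while 5 of 10 laminins with perlecan and 4 of 9 network collagens did not pass.

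Treatments acted on the genes known to respond to them. Averaged over backgrounds, IDMB raised the glucocorticoid target Fkbp5 by log2 3.26, EGF raised the MAPK phosphatase Dusp6 by 2.12, and TCDD raised Tiparp by 2.46 and Cyp1b1 by 1.40. These genes were not specific to 1 agent. Against UT, IDMB raised Tiparp by 2.27, and Fkbp5 rose by 1.32 with EGF and 1.48 with TCDD. Fosl1, also checked for EGF, rose by 3.44 with EGF, 3.27 with IDMB and 2.85 with TCDD. Each had an adjusted p under 0.05 in limma. The arrays differed in RNA quality and in top signal. The 3′ to 5′ ratio of the actin control probes was 1.37 to 1.43 in UT, 1.23 to 1.93 in the other groups without IDMB and 1.80 to 3.80 in the groups with IDMB. The Gapdh ratio was 1.43 to 2.86 with EGF and 0.854 to 1.73 without it. The 2 TCDD arrays had the lowest 99.9th percentiles of intensity, 115500 and 77270 against 131500 to 228800 elsewhere. Fat cell markers, summed over the 4 of 6 on the array, read 598.7 to 1634 without IDMB and 1758 to 5268 with it. Smooth muscle markers, summed over 5 of 5, read 34420 to 89150 without IDMB and 3929 to 17590 with it. That sum was mostly Acta2, with group means of 16.21 in UT and 13.46 in IDMB on the log2 scale. Tagln read 12.41 and 10.27 there, but 9.05 in EGF and 9.14 in IDMB + EGF. Smtn read 8.64 in UT and 8.90 in IDMB, and Cnn1 and Myh11 did not pass the filter. Of 5 macrophage, 5 endothelial and 5 epithelial markers, 1 of each passed the filter: Csf1r (7.49 to 10.57 on the log2 scale), Pecam1 (7.16 to 10.12) and Cdh1 (10.67 to 11.72). Summed macrophage markers read 1180 to 2024 without IDMB and 743.9 to 2882 with it, endothelial markers 1090 to 2289 and 676.4 to 2157, and epithelial markers 2117 to 4001 and 2209 to 4135. Among the markers that did not pass, Ptprc, Adgre1 and Itgam (macrophage) and Cdh5 (endothelium) were under the lower bound on 16 of the 18 arrays each and Krt19 (epithelium) on 18, while Cd68 was under it on 1, Kdr on 2, and Tek and Krt18 on 3. How far RNA quality or the shift in fat markers and Acta2 moved the matrix genes was not tested, except where a value with the actin or Gapdh ratio in the fit is given. In pooled cultures, fewer cells of a kind and less RNA per cell cannot be told apart.

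Compared with UT, IDMB raised the type IV collagen pair, versican, collagen VI α3 and the laminin chain Lamb1. It lowered type I collagen, collagen XI α1, perlecan, Lox and the collagen chaperone Serpinh1. Not all of these changes had the same direction in every other background. Against UT, with 3 arrays in each group, 6 of the 34 members tested were higher (17.6%; 6.66% of all 7134 probe sets tested were higher) and 7 lower (20.6%; 7.42% of all). A call is an adjusted p under 0.05 in limma, with Benjamini-Hochberg adjustment over all probe sets tested. The median member differed by −0.21 on the log2 scale and the median probe set by −0.01. Averaged with equal weight over the 4 backgrounds (none, EGF, TCDD, EGF+TCDD), 6 members were higher (17.6%) and 9 lower (26.5%), where 15.5% of all probe sets were higher and 18.6% lower. The share of members called in this average was thus near that of all probe sets. By role, the average effect lowered 4 of 7 members of the enzyme role, the chaperone Serpinh1 among them, and 3 of 6 fibrillar collagens. None in either role was higher (0 at an unadjusted p under 0.05 in limma). It raised 2 of 5 network collagens, 2 of 8 other collagens, 1 of 5 laminins with perlecan and 1 of 3 glycoproteins, and lowered 1 network collagen and perlecan. With the actin 3′ to 5′ ratio added to the fit, 5 of these 15 average calls held (Col4a1, Col4a2, Vcan, Lox and Serpinh1).

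**Figure D2:**
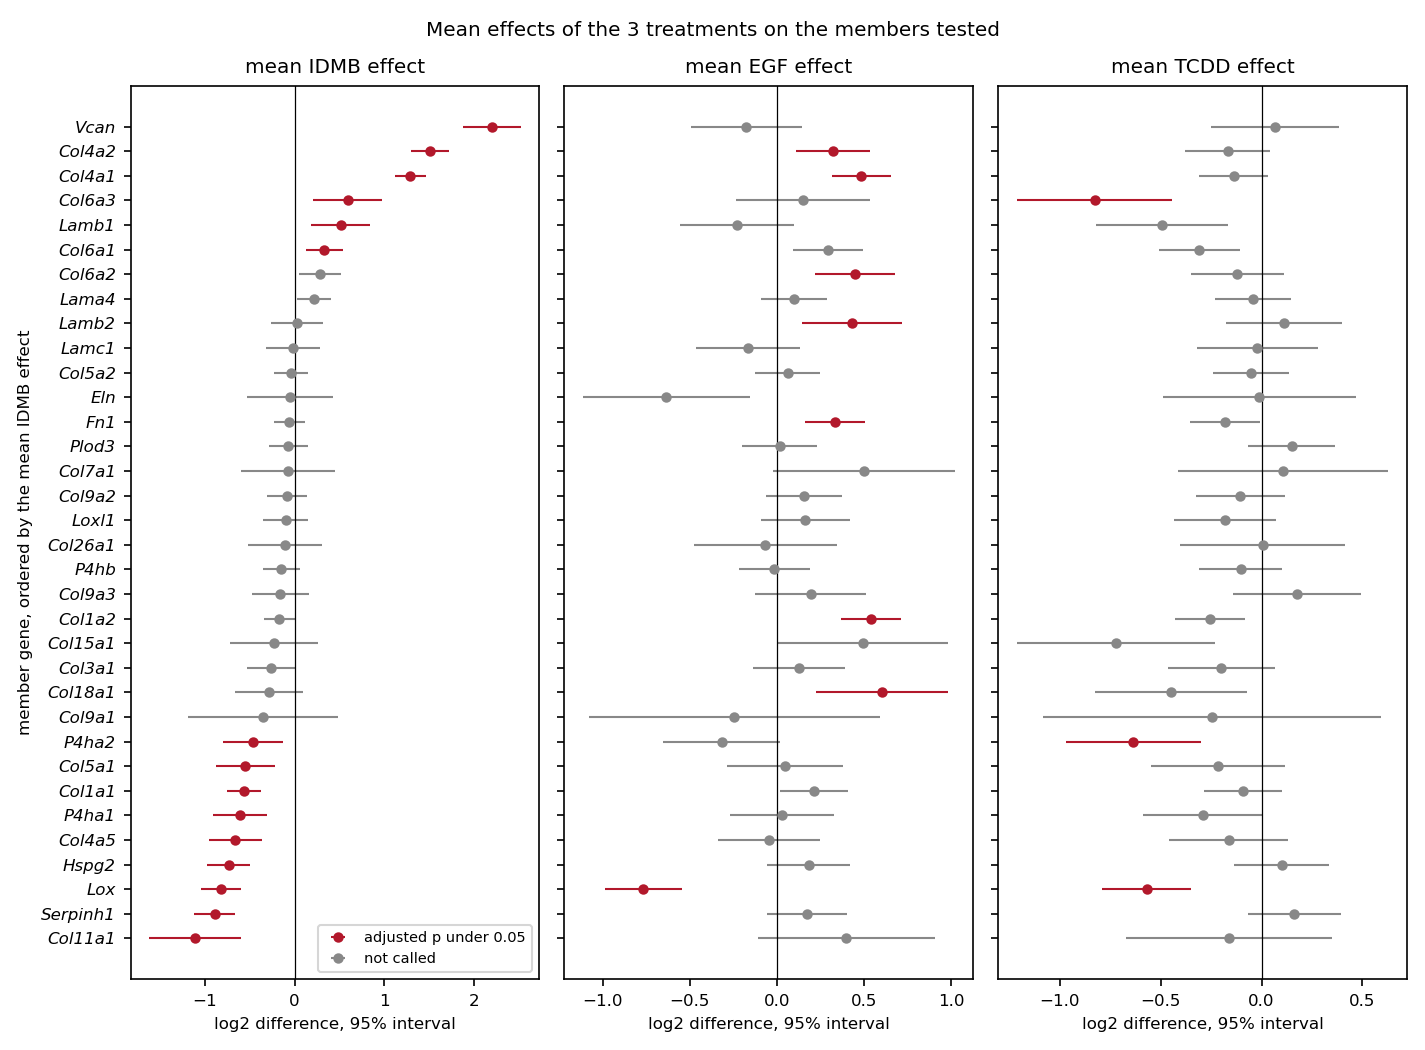
Log2 difference (x axis, with its 95% interval) of the 34 members tested (y axis, ordered by the IDMB effect) for the effects of IDMB, EGF and TCDD, each averaged over the 4 combinations of the other agents on 18 arrays. Red marks an adjusted p under 0.05 in limma: 6 higher and 9 lower for IDMB, 7 higher and 1 lower for EGF, and 0 higher and 3 lower for TCDD.

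Col4a1 and Col4a2, whose chains join in 1 triple helix of the basement membrane network, rose together in every background. Col4a1 had log2 intensities of 14.28, 14.32 and 14.54 on the UT arrays and 15.70, 15.74 and 15.95 on the IDMB arrays. The other arrays without the mix read 14.87 and 15.13 (EGF), 14.21 and 14.26 (TCDD) and 14.92 and 14.78 (EGF+TCDD). With the mix, Col4a1 read 16.28 and 16.00 (IDMB + EGF), 15.70 and 15.62 (IDMB + TCDD) and 16.18 and 15.87 (IDMB + EGF + TCDD). All 9 arrays with IDMB lay above all 9 without it. Col4a1 was 2.66-fold higher in IDMB than in UT (log2 1.41, SE 0.137, adjusted p = 3.42e-06) and 2.44-fold higher on average (adjusted p = 4.92e-09).

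Col4a2 behaved alike in size. Its log2 intensities were 13.53, 13.79 and 14.15 in UT against 14.98, 15.29 and 15.65 in IDMB, and over all arrays 13.53 to 14.15 without the mix and 14.98 to 15.76 with it. The groups did not overlap. The rise was 2.80-fold against UT (log2 1.49, SE 0.170, adjusted p = 1.85e-05), and within each other background it was log2 1.64 (EGF), 1.35 (TCDD) and 1.54 (EGF+TCDD). For Col4a1 these were 1.14, 1.43 and 1.18. For both genes the calls in all 4 backgrounds and in the average held in every alternative fit and without any 1 array.

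The other network collagens were not called higher. Col4a5, a chain of a less widespread type IV collagen, read 9.83 to 10.76 on the arrays without IDMB and 9.11 to 10.09 with it, and its average difference was −0.66 (SE 0.139, adjusted p = 0.00157). Its ranges overlapped, and the call went with the actin ratio in the fit (adjusted p = 0.203). Col15a1 and Col18a1, collagens that link basement membrane to the tissue and carry heparan or chondroitin sulphate, were not called, with average differences of −0.23 (95% interval −0.72 to 0.26) and −0.29 (−0.67 to 0.09). Perlecan (Hspg2), which cross-links laminin and collagen IV sheets, moved the other way from Col4a1: log2 intensity was 13.38, 12.90 and 13.15 in UT and 12.12, 12.23 and 12.04 in IDMB. Every IDMB array lay below every UT array. The fall was 2.01-fold (log2 −1.01, SE 0.191, adjusted p = 0.00167) and −0.73 on average (adjusted p = 9.76e-05), and with the actin ratio in the fit these had adjusted p of 0.0949 and 0.314.

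Laminins are trimers of an α, a β and a γ chain, and chains were called in both directions. Lamb1, the β1 chain, read 12.69, 12.44 and 11.82 in UT and 14.09, 13.54 and 12.97 in IDMB, without overlap, a rise of log2 1.22 (SE 0.263, adjusted p = 0.00438; 0.112 with the actin ratio). In the other groups with the mix it read 12.45 and 12.19 in IDMB + EGF, 11.97 and 12.57 in IDMB + TCDD, and 12.21 and 11.90 in IDMB + EGF + TCDD, all below the IDMB arrays. The average over backgrounds was 0.51 (adjusted p = 0.0168; 0.0526 without IDMB + TCDD replicate 2, and 0.672 with the actin ratio). With the mix, mean Lamb1 went from 11.97 to 12.32 in EGF and from 11.50 to 12.27 in TCDD. In EGF+TCDD it went the other way, from 12.35 to 12.05. Whether the effect differed by background was tested by interactions, and none was called for Lamb1 (adjusted p = 0.207 for IDMB by EGF). Lamb2, the β2 chain, had the opposite pattern: 12.44, 12.00 and 12.53 in UT, 12.10, 11.16 and 11.44 in IDMB, and 12.30 to 13.13 in the 6 arrays with IDMB and another agent. UT and IDMB overlapped by 1 array. The Lamb2 fall of −0.76 (adjusted p = 0.0388) was called in 8 of 18 fits that left out 1 array, with adjusted p up to 0.173, and ended in 5 other alternatives (0.0634 to 0.113). Lamc1, the γ1 chain shared by most laminins, read 11.38, 11.87 and 12.26 in UT and 12.82, 12.66 and 12.29 in IDMB, without overlap, a rise of 0.75 (adjusted p = 0.0474) that was called in 4 of 18 such fits (adjusted p up to 0.203) and had an adjusted p of 0.552 for the mean of its probe sets. Lama4, an α chain of vessel and fat cell basement membranes, differed by 0.39 (95% interval 0.07 to 0.71, adjusted p = 0.103).

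Versican had the largest change of the 34 members tested for IDMB against UT. It read 14.18, 14.13 and 12.90 in UT and 16.15, 15.92 and 15.70 in IDMB. Over all arrays, Vcan ran from 12.90 to 14.18 without IDMB and from 15.48 to 16.15 with it. The ranges did not overlap, and UT replicate 3 was well below the other UT arrays. Against UT, Vcan rose 4.55-fold (log2 2.19, SE 0.256, adjusted p = 2.21e-05), and the log2 rise was 2.37 with EGF, 2.45 with TCDD and 1.78 with both (the last with an adjusted p of 0.00239, and 0.0976 with the actin ratio in the fit). Fibronectin (Fn1), which guides the assembly of other fibres, read 14.17, 14.29 and 14.28 in UT and 14.01, 14.45 and 14.06 in IDMB. Those ranges overlapped, and the average Fn1 difference was −0.06 (95% interval −0.23 to 0.11). Elastin (Eln) was near the filter, at 8.64 to 10.75 over all arrays, and differed by −0.05 on average (−0.53 to 0.42).

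Type I collagen was lower in IDMB than in UT. Col1a1, the α1 chain, read 17.06, 17.22 and 17.00 in UT and 16.06, 16.25 and 16.41 in IDMB. No IDMB array reached the UT range. The fall was 1.80-fold (log2 −0.85, SE 0.156, adjusted p = 0.0012) and was called in every alternative. On average Col1a1 fell by 0.56 (adjusted p = 0.000169; 0.0796 with the actin ratio), and TCDD replicate 2, at 16.34, was the array without IDMB that reached into the IDMB range of 16.06 to 16.71. The second Col1a1 probe set tested showed a larger average difference, −1.50 (adjusted p = 8.2e-07).

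Col1a2, the α2 chain, read 16.91, 17.10 and 16.86 in UT and 16.27, 16.24 and 16.33 in IDMB, again without overlap, and fell by 0.68 (SE 0.140, adjusted p = 0.00327; 0.204 for the mean of all its probe sets). Averaged over the 4 backgrounds its difference was −0.17 (95% interval −0.34 to 0.01) and was not called. With the mix, mean Col1a2 went from 16.94 to 16.79 in EGF and from 16.99 to 16.82 in EGF+TCDD. In TCDD it went the other way, from 15.91 to 16.23. Col11a1, a chain of the collagen that seeds thin fibrils, had the largest fall of the 34 members against UT: 11.27, 11.11 and 12.90 in UT against 9.07, 10.32 and 10.15 in IDMB. All IDMB arrays lay below all UT arrays, and UT replicate 3 stood above the other UT arrays. The difference was −1.91 (SE 0.411, adjusted p = 0.00423; 0.154 with the actin ratio), or 3.77-fold, and −1.11 on average (adjusted p = 0.00199; 0.605 with the actin ratio). Col3a1, which forms mixed fibrils with type I, read 14.96, 15.51 and 15.82 in UT and 14.63, 14.80 and 15.19 in IDMB. These overlapped, and the Col3a1 difference of −0.55 (95% interval −1.01 to −0.10) had an adjusted p of 0.103. One of the 2 other Col3a1 probe sets tested was called lower on average, by 1.08 (adjusted p = 0.000833). Col5a1 averaged −0.55 (adjusted p = 0.0129; 0.813 with the actin ratio) by its brightest probe set and −0.07 (adjusted p = 0.549) by the other, and Col5a2 −0.03 (95% interval −0.22 to 0.15).

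In the cross-linking and folding role, Serpinh1 (HSP47, the chaperone that binds procollagen in the endoplasmic reticulum) fell most. It read 15.17, 15.28 and 15.50 in UT and 13.52, 13.91 and 14.24 in IDMB. The 2 groups did not overlap. The fall was 2.69-fold (log2 −1.43, SE 0.185, adjusted p = 5.58e-05), with −0.89 on average (adjusted p = 9.9e-06), and both calls held in every alternative. Lox, which oxidises lysines so that collagen and elastin can be cross-linked, read 15.81, 15.45 and 15.72 in UT and 15.10, 14.64 and 15.04 in IDMB. All IDMB arrays were below all UT arrays, and the Lox difference was −0.74 (SE 0.178, adjusted p = 0.00938). This call ended for the mean of both Lox probe sets (adjusted p = 0.473), with the actin ratio (0.0705) and without IDMB replicate 2 (0.0555), and the second probe set alone differed by −0.04. On average it was −0.82 (adjusted p = 1.59e-05), a call that held in every alternative, though the second Lox probe set gave −0.35 (adjusted p = 0.416).

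The prolyl 4-hydroxylase subunits P4ha1 and P4ha2, which give the collagen helix its stability, averaged −0.61 (adjusted p = 0.0033) and −0.46 (adjusted p = 0.0339). P4ha1 ran from 12.70 to 13.78 without IDMB and from 11.97 to 12.91 with it, and the ranges overlapped. The P4ha1 call went with the actin ratio in the fit (adjusted p = 0.762). For P4ha2 the average call held in 6 of 18 fits without 1 array, with adjusted p up to 0.0735, and its adjusted p was 0.987 with the actin ratio. P4hb, the shared β subunit, Plod3, a lysyl hydroxylase, and Loxl1, a lysyl oxidase of elastic fibres, were not called in any of the 16 comparisons. Their average IDMB differences were −0.15 (95% interval −0.35 to 0.06), −0.07 (−0.28 to 0.15) and −0.10 (−0.35 to 0.16).

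**Figure D3:**
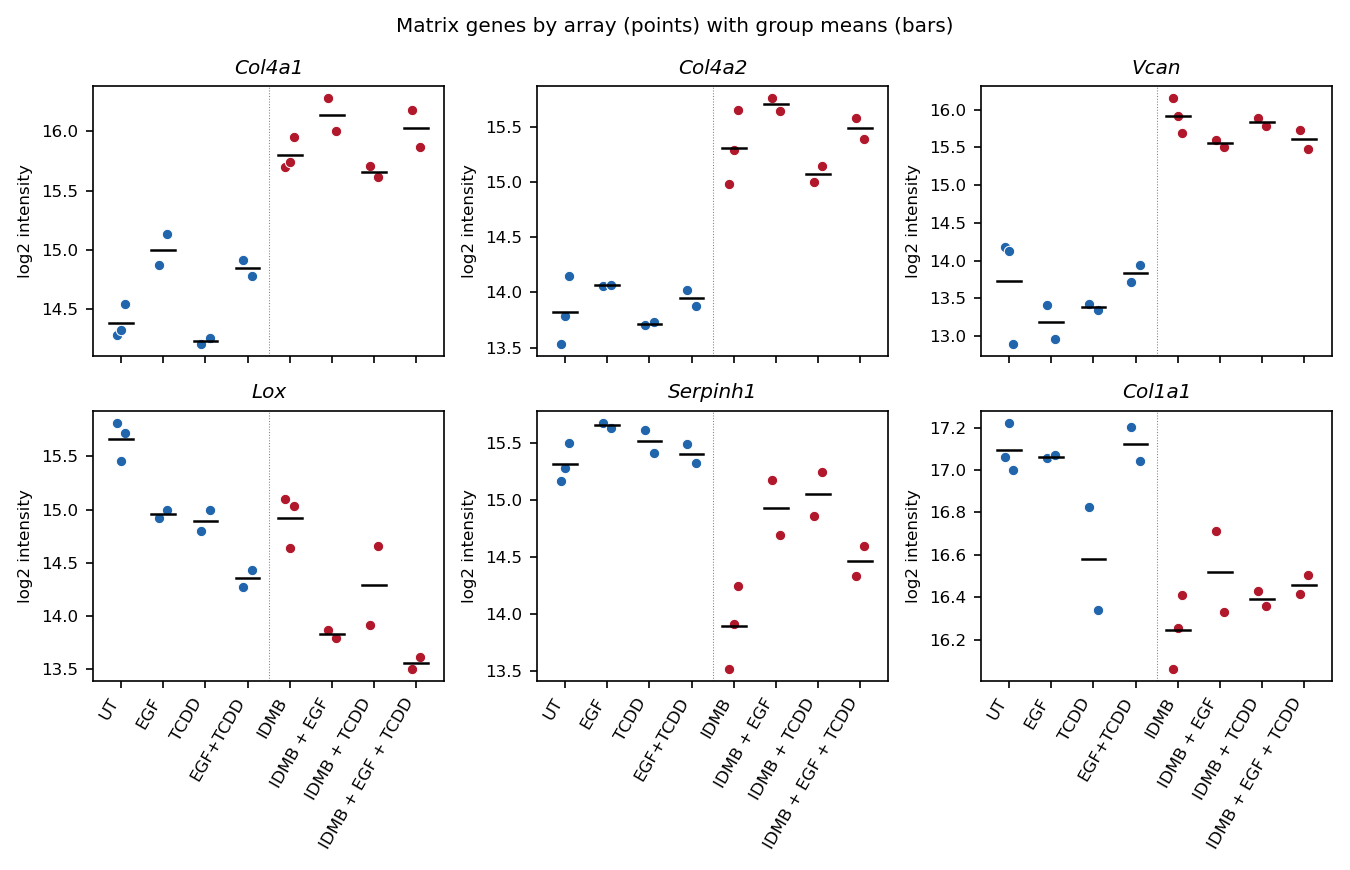
Log2 intensity (y axis) on each array (points, blue without and red with IDMB) in the 8 groups (x axis), with the group mean as a bar, for Col4a1, Col4a2, Vcan, Lox, Serpinh1 and Col1a1. For Col4a1, Col4a2 and Vcan all 9 arrays with IDMB lie above all 9 without it. Lox is highest in UT (15.45 to 15.81) and lowest in IDMB + EGF + TCDD (13.50 and 13.61).

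Collagen VI, a beaded filament around cells made of the α1, α2 and α3 chains, had 1 chain called for IDMB against UT, and differences between the chains were not tested. Col6a3 rose, from 13.79, 14.93 and 15.25 in UT to 15.35, 16.42 and 16.39 in IDMB. The lowest IDMB array was just above the highest UT array, and UT replicate 1 was far below the other UT arrays. The difference was 1.40 (SE 0.310, adjusted p = 0.0055; 0.0514 when the 2 groups were fitted alone). Col6a1 read 15.68, 16.06 and 15.78 in UT and 15.81, 15.68 and 15.83 in IDMB. Col6a2 read 14.13, 14.32 and 14.50 in UT and 13.96, 13.87 and 14.55 in IDMB. Both overlapped and were not called against UT, with differences of −0.06 (95% interval −0.41 to 0.28) and −0.19 (−0.59 to 0.21). Averaged over backgrounds, Col6a3 rose by 0.59 (adjusted p = 0.0192; 0.0507 without IDMB + EGF + TCDD replicate 1) and Col6a1 by 0.33 (adjusted p = 0.013), and the second Col6a1 probe set gave 0.34 (adjusted p = 0.00967). Neither call held with the actin ratio in the fit (adjusted p = 0.103 and 0.359). With the mix, mean Col6a3 went from 15.31 to 16.00 in EGF and from 14.42 to 14.93 in EGF+TCDD. In TCDD it went the other way, from 14.79 to 14.56. Col6a3 was not called in any of these backgrounds. The remaining collagens tested, Col7a1 of anchoring fibrils, Col9a1, Col9a2 and Col9a3 of cartilage fibril surfaces, and Col26a1, were not called in any comparison.

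The same contrast in cells that had EGF, TCDD or both gave fewer calls, with 2 arrays in each group. In EGF, the mix raised Vcan, Col4a2, Col4a1, Col6a2 and Col6a1 and lowered Lox (5 higher, where 5.52% of all probe sets were, and 1 lower, 5.27% of all). In TCDD it raised Vcan, Col4a1 and Col4a2 and lowered Col4a5 and Hspg2 (3 higher, 6.53% of all, and 2 lower, 6.28%). In EGF+TCDD it raised Vcan, Col4a2, Col4a1 and Col6a2 and lowered Serpinh1, Lox and Col1a1 (4 higher, 3.45% of all, and 3 lower, 3.06%). Outside Vcan and the Col4 pair, Lox in EGF (−1.13, adjusted p = 0.00315) was the call that held without any 1 array (0.157 for the mean of both Lox probe sets). The other calls were lost in 1 to 13 of the 18 such fits, among them Col1a1 in EGF+TCDD (−0.66, adjusted p = 0.049, up to 0.264 without EGF+TCDD replicate 1). Hspg2 in TCDD (−0.83, adjusted p = 0.0294) reached 0.266 without IDMB + TCDD replicate 2. With the actin ratio in the fit, adjusted p was 0.0765 for Col4a5 and 0.429 for Hspg2 in TCDD, 0.0918 for Col6a1 in EGF, and 0.231, 0.287, 0.298 and 0.319 for Col6a2, Serpinh1, Lox and Col1a1 in EGF+TCDD.

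EGF moved fewer members, most of them upwards. Averaged over the 4 backgrounds, Col18a1, Col1a2, Col4a1, Col6a2, Lamb2, Fn1 and Col4a2 were higher (7 of 34, 20.6%; 7.06% of all probe sets) and Lox was lower (1 of 34, 2.94%; 6.04% of all). The differences of the 7 ran from 0.32 for Col4a2 to 0.60 for Col18a1, the source of endostatin, while Lox fell by 0.77. The median member differed by 0.15 and the median probe set by 0.00 on the log2 scale. Col1a2 rose by 0.54 (SE 0.0823, adjusted p = 0.00104), Col4a1 by 0.48 (adjusted p = 0.00176), Col6a2 by 0.45 and Fn1 by 0.33 (both adjusted p = 0.0156). For Fn1 and Col1a2, group means without and with EGF are given for each background. With EGF, mean Fn1 went from 14.25 to 14.29 in UT and 14.17 to 14.22 in IDMB. It went from 13.73 to 14.42 in TCDD and 13.74 to 14.31 in IDMB + TCDD. Mean Col1a2 went from 16.96 to 16.94 in UT, 15.91 to 16.99 in TCDD, 16.28 to 16.79 in IDMB and 16.23 to 16.82 in IDMB + TCDD. No EGF by TCDD interaction was called for either gene. The calls for Col1a2, Col4a1, Col6a2 and Lox held without any 1 array. The Fn1 call was lost without TCDD replicate 2 (adjusted p = 0.0503), and the calls for Col4a2, Lamb2 and Col18a1 were lost in 16, 14 and 10 of the 18 fits without 1 array. None of the 8 held with the actin or the Gapdh 3′ to 5′ ratio in the fit, ratios that reached 3.80 and 2.86 with EGF and 2.25 and 1.73 without it. Other probe sets differed for Col5a1, lower by 0.54 (adjusted p = 0.00147) where the brightest was not called, and for Col6a1, higher by 0.32 (adjusted p = 0.0337) where the brightest gave 0.29 (adjusted p = 0.0533). The other Col1a2 probe set differed by −0.15 (adjusted p = 0.472).

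Against UT, EGF alone raised Col4a1 (1 higher, 3.59% of all probe sets) and lowered Lox (1 lower, 2.58%). The EGF arrays read 14.87 and 15.13 for Col4a1, above the UT range of 14.28 to 14.54, a difference of 0.62 (SE 0.154, adjusted p = 0.0268). For Lox they read 14.92 and 15.00, below the UT range of 15.45 to 15.81, a difference of −0.70 (adjusted p = 0.0467). These are changes of 1.54-fold and 1.63-fold. The Col4a1 call was lost without UT replicate 1 (adjusted p = 0.0709), UT replicate 2 (0.103), EGF replicate 1 (0.0675) or EGF replicate 2 (0.29), and the Lox call in 14 of 18 such fits (adjusted p up to 0.219). Neither call held with the actin ratio (0.0575 and 0.0905), the Gapdh ratio (0.0644 and 0.0965) or arrays scaled to the same median (0.051 and 0.0847).

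TCDD lowered Lox, Col6a3 and P4ha2 and raised no member. Averaged over backgrounds, 3 of 34 were lower (8.82%; 2.83% of all probe sets) and 0 were higher (2.71% of all; 0 members at an unadjusted p under 0.05 in limma, 9 lower at that level). Col6a3 fell by 0.83 (SE 0.182, adjusted p = 0.0131), P4ha2 by 0.64 (adjusted p = 0.0252) and Lox by 0.57 (adjusted p = 0.00375). Without EGF or IDMB, Col6a3 did not fall: the TCDD arrays read 14.72 and 14.86, inside the UT range of 13.79 to 15.25. With TCDD its group mean went from 15.31 to 14.42 in EGF, 16.05 to 14.56 in IDMB and 16.00 to 14.93 in IDMB + EGF. No interaction with TCDD was called for Col6a3. The median member differed by −0.15 and the median probe set by 0.01. The Col6a3 and Lox calls held without any 1 array, and the P4ha2 call held in 9 of 18 such fits, with adjusted p up to 0.0648. The second P4ha2 probe set was also lower, by 1.01 (adjusted p = 0.00641). The second Lox probe set differed by −0.54 (adjusted p = 0.368), and the mean of both had an adjusted p of 0.0878. Without the filter on dim probe sets the Col6a3 call ended (0.0668), and with the actin ratio the P4ha2 call did (0.0804). For Col6a1 the second probe set was lower by 0.43 (adjusted p = 0.0128) and the brightest differed by −0.31 (adjusted p = 0.0753).

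Against UT, TCDD alone lowered Col1a2 and Lox (2 lower, 3.8% of all probe sets) and raised no member (3.88% of all; 3 members at an unadjusted p under 0.05). Col1a2 read 16.06 and 15.75, below the UT range of 16.86 to 17.10. The difference was −1.05 (SE 0.157, adjusted p = 0.00143), and −0.58 (adjusted p = 0.00418) after quantile normalization, beside the lower top signal of these 2 arrays. With the Gapdh ratio in the fit, which was lowest on these arrays (0.854 and 0.919), the Col1a2 call ended (adjusted p = 0.0526). Lox read 14.80 and 15.00 against 15.45 to 15.81, a difference of −0.77 (adjusted p = 0.0292) that was −0.51 after quantile normalization (adjusted p = 0.137). Without UT replicate 1, UT replicate 3, TCDD replicate 1 or TCDD replicate 2 its adjusted p was 0.0762, 0.0512, 0.192 and 0.0864, and with the Gapdh ratio it was 0.298. Col1a1, at 16.82 and 16.34, lay below the UT range of 17.00 to 17.22 and was not called.

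EGF and TCDD together lowered Lox and P4ha2 against UT (2 lower, 2.44% of all probe sets) and raised no member (2.96% of all; 1 member at an unadjusted p under 0.05 in limma). Lox read 14.27 and 14.44, below both the EGF and the TCDD arrays, and was 2.48-fold lower than UT (log2 −1.31, SE 0.199, adjusted p = 0.00193). The Lox call ended with the Gapdh ratio in the fit (adjusted p = 0.103) and for the mean of both Lox probe sets (0.079). P4ha2 read 12.60 and 12.72 against 13.43, 14.16 and 14.39 in UT. The P4ha2 difference was −1.33 (adjusted p = 0.0193), and adjusted p rose to 0.079 without UT replicate 2, 0.0519 without UT replicate 3, 0.16 without EGF+TCDD replicate 1 and 0.116 without EGF+TCDD replicate 2. It was 0.652 with the Gapdh ratio and 0.147 with the actin ratio.

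EGF and TCDD given with the mix shifted several members. Serpinh1 and Col11a1 moved from the IDMB level towards that of UT, and Lox moved further away. Lamb1 moved to near or below UT (group means of 12.05 to 12.32 against 12.31). Lamb2 moved above UT (12.55 to 12.74 against 12.32). No IDMB by EGF or IDMB by TCDD interaction was called for Serpinh1, Col11a1, Lamb1 or Lamb2. All 3 comparisons use the same 3 IDMB arrays, so they are given side by side and not as independent evidence. IDMB against UT uses these arrays too, so a move back from a level called there is partly built in. EGF added to IDMB raised Col11a1, Col6a2, Lamb2, Serpinh1 and Col6a1 and lowered Lamb1 and Lox (5 higher, 1.92% of all probe sets, and 2 lower, 1.88%). TCDD added to IDMB raised Serpinh1 and Lamb2 and lowered Col6a3 and Lamb1 (2 higher, 3.06% of all, and 2 lower, 3.53%). Both added raised Lamb2, Col6a2 and Col1a2 and lowered Lamb1 and Lox (3 higher, 3.36% of all, and 2 lower, 3.45%). Lamb1 and Lamb2 were thus called in all 3, in opposite directions.

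Serpinh1 read 13.52, 13.91 and 14.24 in IDMB, 15.17 and 14.70 in IDMB + EGF, 14.86 and 15.25 in IDMB + TCDD, and 14.33 and 14.60 in IDMB + EGF + TCDD. All 6 arrays with a further agent lay above the 3 IDMB arrays. The differences were 1.04 (SE 0.207, adjusted p = 0.0102), 1.16 (adjusted p = 0.00304) and 0.58 (adjusted p = 0.113), of which the last was not called. The EGF call was lost without IDMB + EGF replicate 1 (adjusted p = 0.157) and the TCDD call without IDMB + TCDD replicate 2 (adjusted p = 0.0713). Lamb1 differed from IDMB by −1.21 with EGF (adjusted p = 0.031), −1.26 with TCDD (adjusted p = 0.0162) and −1.48 with both (adjusted p = 0.00655). Lamb2 differed by 1.15 (adjusted p = 0.0219), 0.99 (adjusted p = 0.0316) and 1.17 (adjusted p = 0.0121). Each of these 6 calls was lost in 1 to 4 of the 18 fits without 1 array, in each case an IDMB array or an array of the group compared, and the highest adjusted p of a call there lay between 0.099 and 0.286. With the actin ratio in the fit, adjusted p rose to 0.0541 for Lamb1 and 0.0688 for Lamb2 with EGF, and to 0.157 and 0.438 with both agents. With the Gapdh ratio it rose to 0.0558 for Lamb2 with EGF, to 0.0861 and 0.0661 for Lamb1 and Lamb2 with TCDD, and to 0.056 and 0.273 with both. The Col1a2 call with both agents added ended with either ratio (0.515 and 0.366) and in 14 of the 18 fits without 1 array, and the Col6a2 call there with the actin ratio (0.214). The Col6a1 call with EGF added had an adjusted p of 0.0604 with the actin ratio.

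Col6a2 rose when EGF joined the mix. It read 15.84 and 15.45 in IDMB + EGF against 13.96, 13.87 and 14.55 in IDMB, 14.88 and 14.50 in EGF, and 14.57 and 14.13 in IDMB + TCDD. The 2 arrays with IDMB and EGF were the highest of the 18. Against IDMB the difference was 2.86-fold (log2 1.52, SE 0.209, adjusted p = 0.000904), a call that held in every alternative and without any 1 array. Lox fell further with EGF on top of IDMB, to 13.87 and 13.79 (−1.09, adjusted p = 0.00613; 0.0658 without IDMB + EGF replicate 1), and with both agents to 13.50 and 13.61 (−1.37, adjusted p = 0.000711, held in every alternative). Col6a3 read 14.43 and 14.68 in IDMB + TCDD, below all 3 IDMB arrays (−1.50, adjusted p = 0.016; 0.128 without IDMB + TCDD replicate 1, 0.082 without IDMB + TCDD replicate 2 and 0.0697 without IDMB replicate 2). Col11a1 rose with EGF from the low IDMB level to 11.56 and 11.80 (1.83, adjusted p = 0.0347), a call lost when any of 4 arrays was left out (adjusted p up to 0.165).

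**Figure D4:**
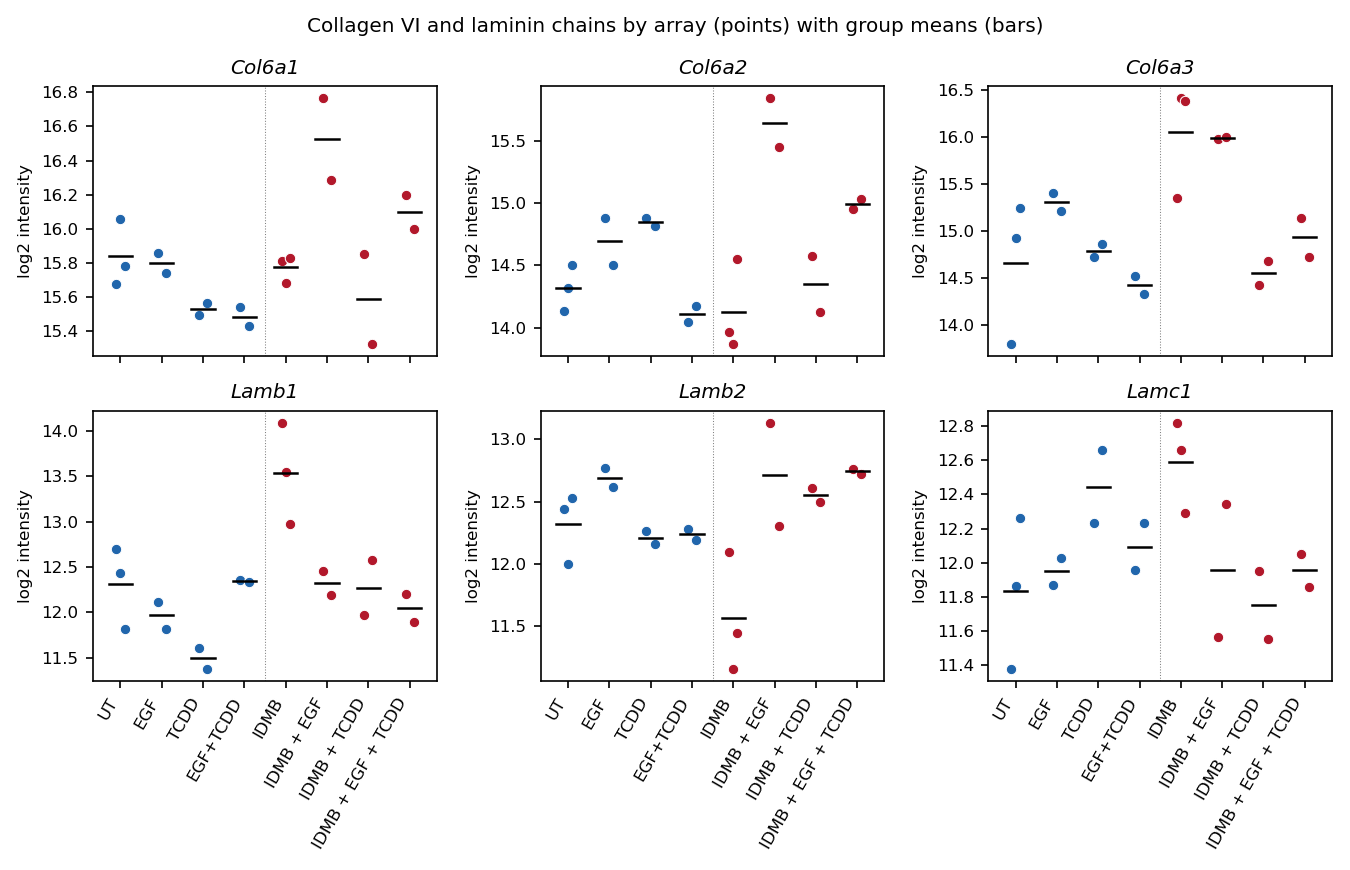
Log2 intensity (y axis) on each array (points, blue without and red with IDMB) in the 8 groups (x axis), with the group mean as a bar, for the collagen VI chains Col6a1, Col6a2 and Col6a3 and the laminin chains Lamb1, Lamb2 and Lamc1. Lamb1 is highest and Lamb2 lowest in IDMB alone, and Col6a2 is highest in IDMB + EGF (15.84 and 15.45).

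Interactions tested whether an effect differed between backgrounds, and few members were called. For IDMB by EGF, Col6a2 was called (1 higher, 0.0561% of all probe sets; 0 lower, 0.0701%; 3 higher and 1 lower at an unadjusted p under 0.05 in limma): the effect of IDMB on Col6a2 was larger by 1.26 with EGF than without it (SE 0.219, adjusted p = 0.0435). That call held in 6 of 18 fits without 1 array, with adjusted p up to 0.126. For IDMB by TCDD, 0 members were called (0.028% of all probe sets higher and 0.0841% lower; 4 members higher and 2 lower at an unadjusted p under 0.05). For EGF by TCDD, 2 were lower (2.37% of all) and 0 higher (2.1% of all; 3 at an unadjusted p under 0.05): Serpinh1 by −1.04 (SE 0.217, adjusted p = 0.0161) and Col6a2 by −0.99 (adjusted p = 0.0215). The Serpinh1 call held without any 1 array, and that of Col6a2 was lost without EGF replicate 1 (adjusted p = 0.068), EGF+TCDD replicate 1 (0.0556) or IDMB + TCDD replicate 1 (0.06). With the Gapdh ratio in the fit their adjusted p were 0.612 and 0.729.

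Over all 16 comparisons, 21 of the 34 members were called at least once and 13 never. How many of all probe sets were called at least once was not counted, so this says nothing particular about the members. The average IDMB effect alone called 15.5% of all probe sets higher and 18.6% lower. Lox was called in 11 comparisons, Col4a1 and Col6a2 in 7, and Col4a2 and Serpinh1 in 6. Of the 82 calls, 43 held in every fit without 1 array and 20 in all alternatives run. Another tested probe set of the same gene was at hand for 31 of the calls: 28 had the same sign there, 12 were called the same way and 0 the opposite way. Comparisons share arrays, so these counts do not add independent evidence.

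Of 63 tested genes on 5 lists that work with collagen in the cell and around it, 32 were lower in the average IDMB effect (50.8%; 18.6% of all probe sets) and 3 higher (4.76%; 15.5% of all). These are counts, with no test of a list. The lists were chosen with earlier results of these data known, so the shares are description and not independent evidence. Each list gene is given by its brightest probe set, while the shares of all count every probe set tested. No values with the actin ratio in the fit are given for list genes. Of 16 procollagen processing and folding genes tested, 11 were lower, 0 were higher (1 at an unadjusted p under 0.05 in limma) and 5 were not called. They included Pcolce, the enhancer of the enzyme that trims procollagen ends (log2 −1.11, adjusted p = 5.91e-06), the disulphide isomerase Pdia6 (−1.08), the transcription factor Creb3l1 (−0.79) and Sec23a of the coat that carries procollagen out of the endoplasmic reticulum (−0.65). Of 14 collagen and laminin receptors, 5 were lower, 0 were higher and 9 were not called. The lower genes included the laminin receptor chain Itgb4 (−2.69, adjusted p = 2.54e-06), the collagen receptor kinase Ddr1 (−1.16), Sdc2 (−0.80) and Itgav (−0.59). The 2 list medians were −0.43 and −0.24, against −0.04 for all probe sets tested.

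Of 13 matrix proteoglycans and glycoproteins, 7 were lower and 3 higher. Beside this list and those below, 18.6% of all probe sets were lower and 15.5% higher in the average IDMB effect. Decorin (Dcn), which binds and spaces collagen fibrils, fell by 2.39 (adjusted p = 3.82e-08), Matn4 by 2.03, Thbs2 by 1.15 and Sparcl1 by 1.14, while Tnc (0.78), Matn2 (0.77) and Bgn (0.30) were higher. Of 8 elastic fibre partners, 4 were lower and 0 higher, led by the microfibril protein Mfap5 (−2.75, adjusted p = 2.67e-09) and Ltbp1 (−1.85), with Fbn2 (−0.64) and Fbln2 (−0.35). Of 12 TGF-beta signalling genes, 5 were lower and 0 higher (among them Smad6 by −0.72, Smad2 by −0.66, Tgfb2 by −0.55 and Smad7 by −0.54). In the receptor, elastic fibre and TGF-beta lists, 0 genes were higher at an unadjusted p under 0.05 in limma as well.

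Over the same 63 genes, the average EGF effect had 4 higher (6.35%; 7.06% of all probe sets) and 3 lower (4.76%; 6.04% of all), and the average TCDD effect 1 higher (1.59%; 2.71% of all) and 4 lower (6.35%; 2.83% of all). The average EGF effect raised Itga5 (0.51) and Itgb1 (0.28), chains of the fibronectin receptor, and Fbn2 (0.64) and Ltbp2 (0.60), and lowered the collagen uptake receptor Mrc2 (−0.55), Smad6 (−0.45) and Sec31a (−0.26). The average TCDD effect lowered Tnc (−1.14), Sparcl1 (−0.88), Fbln2 (−0.79) and Inhba (−0.65) and raised Colgalt1 (0.41), an enzyme that adds galactose to collagen. Fbln2 was lower on all 8 arrays with TCDD than on all 10 without it (adjusted p = 0.000879).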

How the data were processed

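Gene expression was read on 18 Affymetrix mouse arrays. The deposited values are linear intensity values, as their range of 0.4 to 441059.8 shows and the labels describe them. Each array's mean without the outer 2% was 2499 or 2500, so the values had been scaled to a common mean before deposit. They were made with software not given in the sources used here. Array medians ran from 793.4 to 935.7, and no further scaling was applied.

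Values under the 20th percentile of all values (143.5) were raised to it and log2 was taken. Of 12488 probe sets, 66 were controls and were left out of the tests, 10855 had 1 gene symbol, 396 several and 1237 none. All 51 members matched RefSeq by Entrez identifier, with 0 symbols changed. Probe sets whose highest group mean reached the median of all log2 values (9.731) were tested: 7134 probe sets of 5438 genes.

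limma 3.58.1 in R 4.3.3 fitted 1 mean per group over the 18 arrays, with a variance trend (residual degrees of freedom 10, prior 6.03) and Benjamini-Hochberg adjustment within each of 16 comparisons. Every p is from this fit, and precision is limited by how few arrays each group holds. Alternatives were another floor, scaling, normalization or filter, no trend, probe sets averaged, 2 groups alone, a replicate block, the actin and Gapdh 3′ to 5′ ratios as covariates, and each array left out.

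The members and the gene lists were chosen with earlier results of these data known. Named with values on each array were Col1a1, Col1a2, Col3a1, Col4a1, Col4a2, Lox, Serpinh1, Fn1 and members called in IDMB against UT, an average effect or an interaction, up to 10 per direction. List genes were named where called in an average effect, up to 4 per direction. Replicate numbers were not used to pair the arrays in the main fit, and a replicate block was fitted as an alternative. Deviations of same-numbered arrays correlated by −0.103 to 0.438 (median 0.0517 for replicate 1 and 0.0311 for replicate 2). In a group of 2 arrays the deviations mirror each other, so these values do not settle whether the arrays were paired.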

Additional observations from a re-analysis of the deposited data

Results flagged for a closer look

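Effects that differed between backgrounds were found for 2 members by a test of the difference itself (limma interaction terms, adjusted over all 7134 probe sets tested). For Col6a2 the IDMB effect was larger by log2 1.26 (1.2609) with EGF than without it (adjusted p = 0.0435). That adjusted p was 0.0594 with arrays scaled to the same median, 0.0572 with the actin ratio and 0.0744 with the Gapdh ratio. For the same gene the EGF effect with TCDD minus that without it was −0.9941 (adjusted p = 0.0215; 0.0738 with the actin ratio). For Serpinh1 this difference was −1.04 (adjusted p = 0.0161). The Serpinh1 EGF effect within IDMB was 1.04, and both agents together differed from IDMB by 0.58. These flags rest on 2 or 3 arrays in each group, and the Gapdh 3′ to 5′ ratio in the fit took the EGF by TCDD terms to adjusted p of 0.729 and 0.612. Groups of 2 or 3 arrays are too small to test 1 array as an outlier.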

How the results depend on the processing

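Counts of called members moved by over 1.5 times in these fits. With the Gapdh ratio as a covariate, EGF against UT, TCDD against UT, EGF+TCDD against UT, the average EGF effect and the IDMB by EGF and EGF by TCDD interactions gave 0, IDMB + TCDD against IDMB 2 and IDMB + EGF + TCDD against IDMB 3. With the actin ratio, IDMB against UT gave 7, the average IDMB effect 5, IDMB + EGF against IDMB 4, IDMB + TCDD against TCDD 3, IDMB + EGF + TCDD against EGF+TCDD 2, IDMB + EGF + TCDD against IDMB 1, EGF+TCDD against UT 1, and EGF against UT, the average EGF effect and the IDMB by EGF and EGF by TCDD interactions 0. These ratios move with the groups, and the cause of the losses was not tested.

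Without the filter on dim probe sets, the counts were 5 (average EGF), 3 (IDMB + EGF against IDMB and IDMB + EGF + TCDD against EGF+TCDD), 2 (IDMB + EGF + TCDD against IDMB), 1 (EGF against UT, EGF+TCDD against UT, IDMB + TCDD against IDMB, average TCDD, EGF by TCDD) and 0 (IDMB by EGF), with more probe sets to adjust for. Without the variance trend they were 5 (average EGF), 4 (IDMB + EGF against IDMB and IDMB + EGF + TCDD against EGF+TCDD), 1 (TCDD against UT) and 0 (EGF against UT and IDMB by EGF). Quantile normalization gave 8 for IDMB + TCDD against TCDD, 4 for EGF by TCDD and 1 for EGF against UT. Scaling to the same median gave 1 for EGF against UT, which was neither Col4a1 nor Lox, and 0 for IDMB by EGF. Averaging all probe sets gave 1 for EGF, TCDD and EGF+TCDD against UT, and fitting 2 groups alone gave 1 for EGF and for TCDD against UT. For these the cause was not tested.

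With the replicate block, TCDD against UT gave 5 and EGF by TCDD 8; the other counts stayed within 1.5 times, IDMB against UT at 17 and the average IDMB effect at 16. Without each array in turn, counts ran from 10 to 15 for IDMB against UT, 13 to 16 for the average IDMB effect, 4 to 8 for the average EGF effect, 2 to 4 for the average TCDD effect, 0 to 2 for EGF against UT, 1 to 3 for TCDD against UT, 1 to 2 for EGF+TCDD against UT, 1 to 7 for IDMB + EGF against IDMB, 1 to 5 for IDMB + TCDD against IDMB, 1 to 5 for IDMB + EGF + TCDD against IDMB, 4 to 8 for IDMB + EGF against EGF, 4 to 6 for IDMB + TCDD against TCDD, 3 to 7 for IDMB + EGF + TCDD against EGF+TCDD, 0 to 1 for IDMB by EGF, 0 to 0 for IDMB by TCDD and 1 to 5 for EGF by TCDD. Where 1 array was left in a group, its spread was taken to be that of the others. No called value changed sign in any fit run. Genes near the lower bound have understated differences, and the 17 members under the filter were not tested.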
